A study of Mus musculus with 4 samples.

Results

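The superoxide dismutases, the copper-handling proteins that serve them and the metallothioneins were followed in the lumbar spinal cord of ALS (G93A) mice given spermidine (SD) or vehicle. The 10 genes were taken by name from the deposited RNA-seq table, which holds 18674 gene names: Sod1, Sod2 and Sod3, then Ccs, Atox1, Atp7a and Slc31a1, then Mt1, Mt2 and Mt3. All 10 were found, in 1 row each except Atp7a, whose 2 transcript rows were averaged. The 4 conditions were WT mice and transgenic mice carrying mutant human SOD1 (G93A), each with vehicle or with SD. According to the methods, the mice were of a high-expresser G93A strain bred to B6/SJLF1 females, the animals of the treatment studies were male, and cords were collected from mice aged 100 days that had received SD or PBS for 30 days. For SD administration the methods name 4 intraperitoneal injections of 5 mg/kg per week, and the paper's motor tests used a different number per week. Each condition is 1 library, and how many animals were behind it is not stated. No difference between conditions therefore has a replicate check, and no p-value is given.

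A superoxide dismutase turns superoxide into hydrogen peroxide and oxygen. SOD1 is the copper and zinc enzyme of the cytosol, SOD2 the manganese enzyme of mitochondria and SOD3 the copper and zinc enzyme secreted into the extracellular space. Copper enters cells through SLC31A1, is handed by ATOX1 to the pump ATP7A, which moves it into the secretory pathway or out of the cell, and is placed into SOD1 by CCS. Metallothioneins are small, cysteine-rich proteins that hold zinc and copper. MT1 and MT2 are induced by metals, glucocorticoids and inflammation and are known from astrocytes of the injured nervous system, whereas MT3 is found mainly in brain and spinal cord. Mutations of human SOD1 cause a familial form of ALS, and the G93A mouse carries such a gene in addition to its own Sod1. The values below are those of mouse Sod1, and human SOD1 was not analysed here.

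The values are in RPKM (read number corrected for transcript length and library size), a unit inferred from the numbers themselves. The depth was estimated at 7.95 to 8.34 Gb of aligned bases per library. The least covered value among the members, that of Ccs in WT + SD, then rests on about 333 read pairs of 216 aligned bases, for which counting error alone is 5.48%. The differences between animals come on top of this and are unknown. Markers of spinal cord were present in every library, those of muscle nearly absent. The summed RPKM of 10 motor neuron genes was between 89.2 and 135.6, the summed RPKM of 8 oligodendrocyte genes was between 6943 and 9317, and that of 6 skeletal muscle genes between 0.904 and 1.08, with Myh4 at 0 in WT vehicle and Tnnt3 at 0 in WT + SD. A gene was called higher or lower at 1.5-fold, the threshold of the study, and each count is set beside the share of all 18674 names that were called.

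The metallothioneins stood apart from the other members. Mt1 and Mt2 were between 4.63-fold and 6.97-fold higher in the G93A libraries than in the WT libraries with the same treatment, and Mt3 was about 2.1-fold higher. The copper-handling genes were between 1.22-fold and 1.64-fold higher. Sod3 was higher, Sod2 lower, and mouse Sod1 nearly level. In the comparison of the vehicle libraries, 4 of the 10 members were called higher (Atp7a, Mt1, Mt2 and Mt3) and 0 lower, while 20.3% of all names were called higher and 10.3% lower. Under SD, 6 members were called higher (these 4, Sod3 and Ccs) and 1 lower (Sod2), against 23.2% and 12.5% of all names. The median log2 fold of the members was 0.51 under vehicle and 0.65 under SD, and over all names above 0 it was 0.060 and 0.064. Because many low names pass 1.5-fold, the shares were also taken over the 8847 names with a mean of at least 5 RPKM, where 10.2% were called higher and 3.8% lower under vehicle, and 12.4% and 7.79% under SD.

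**Figure D1:**
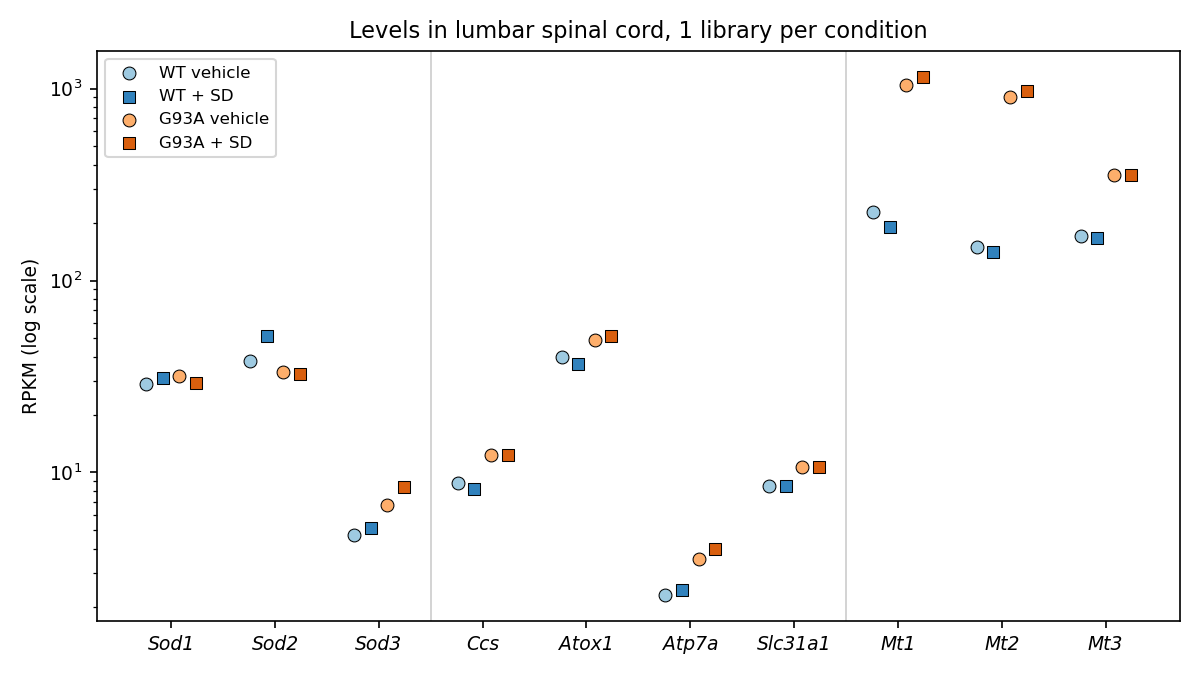
RPKM of the 10 members on a log scale in the 4 libraries, 1 point per library (circles vehicle, squares SD, blue WT, orange G93A); vertical lines separate superoxide dismutases, copper handling and metallothioneins. Mt1 lies at 227 and 191 in the WT libraries and at 1049.7 and 1155 in the G93A libraries, whereas the 4 values of Sod1 lie between 29.0 and 31.9.

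The 2 WT libraries and the 2 G93A libraries can also be set against each other regardless of SD. In 8 members both G93A values lay above both WT values, and in 1, Sod2, both lay below. Only Sod1 overlapped. Such separation was frequent in these libraries, with 39.7% of all names higher in G93A and 28.0% lower without overlap, and 42.3% and 35.8% of those with a mean of at least 5 RPKM. With scaling by median ratios the shares of all names were 34.1% and 33.5%. A gap of at least 1.5-fold between the nearest WT and G93A libraries was found for Mt1, Mt2 and Mt3 alone among the members, all higher, and in this direction for 13.1% of all names and 8.47% of those with a mean of at least 5 RPKM. No member had such a gap in the other direction, which 3.9% of all names and 2.45% of the names at this level had.

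Mt1, which encodes metallothionein 1, had 227 RPKM with vehicle and 191 with SD in WT, and 1049.7 with vehicle and 1155 with SD in G93A. Both G93A libraries stood far above the WT libraries, by 4.63-fold under vehicle (log2 fold 2.21) and by 6.04-fold under SD (log2 fold 2.60). Ranked by RPKM among all names, Mt1 was at place 96 in WT vehicle and 118 in WT + SD, and at place 10 in G93A vehicle and 9 in G93A + SD. Mt2, its neighbour on chromosome 8, had 149 RPKM with vehicle and 140.3 with SD in WT, and 900.3 with vehicle and 978 with SD in G93A. Its folds, 6.05 under vehicle and 6.97 under SD, were the largest of all members. In the vehicle comparison 5.30% of all names had a fold as high as that of Mt2 or higher, and 6.44% as high as that of Mt1.

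Mt3, the metallothionein of neural tissue, had 169.9 RPKM with vehicle and 166 with SD in WT, and 356 with vehicle and 353 with SD in G93A. The libraries of a genotype were within 3% of each other, and the G93A libraries were 2.09-fold higher under vehicle and 2.13-fold under SD. As many names as 12.7% reached the fold of Mt3 under vehicle. The proportions of the metallothioneins thus differed between genotypes. The ratio of Mt2 to Mt3 was 0.876 in WT vehicle and 0.847 in WT + SD, and 2.53 in G93A vehicle and 2.77 in G93A + SD. The ratio of Mt1 to Mt2 went the other way, from 1.52 and 1.36 in the WT libraries to 1.17 and 1.18 in the G93A libraries. The metallothioneins together made up 0.212% and 0.193% of all RPKM in WT vehicle and WT + SD, and 0.833% and 0.893% in G93A vehicle and G93A + SD.

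The 3 genes lie side by side on the plus strand of chromosome 8 (GRCm38), Mt3 from 94152607 to 94154146, Mt2 from 94172664 to 94173568 and Mt1 from 94179082 to 94180327, each with 3 exons in the listed transcript. Since all 3 differed in the same direction, the 250 bases before each RefSeq start are shown (RefSeq, GRCm38.p6, plus strand, 5′ to 3′). Capitals mark matches to the core of the metal response element, the site of the zinc-sensing factor MTF1, searched on both strands as TGCACNC and TGCGCNC.
Mt1, chr8:94178839-94179088: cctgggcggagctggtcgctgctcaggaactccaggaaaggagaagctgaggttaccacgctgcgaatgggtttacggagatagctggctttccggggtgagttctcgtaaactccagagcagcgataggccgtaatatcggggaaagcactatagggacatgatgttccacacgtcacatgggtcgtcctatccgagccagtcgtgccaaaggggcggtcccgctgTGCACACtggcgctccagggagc
Mt2, chr8:94172368-94172617: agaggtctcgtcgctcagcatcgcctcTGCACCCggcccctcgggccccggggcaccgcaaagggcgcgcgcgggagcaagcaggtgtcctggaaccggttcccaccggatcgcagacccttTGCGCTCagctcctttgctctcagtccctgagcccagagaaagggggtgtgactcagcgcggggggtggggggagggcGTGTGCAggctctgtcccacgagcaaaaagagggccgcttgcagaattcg
Mt3, chr8:94152357-94152606: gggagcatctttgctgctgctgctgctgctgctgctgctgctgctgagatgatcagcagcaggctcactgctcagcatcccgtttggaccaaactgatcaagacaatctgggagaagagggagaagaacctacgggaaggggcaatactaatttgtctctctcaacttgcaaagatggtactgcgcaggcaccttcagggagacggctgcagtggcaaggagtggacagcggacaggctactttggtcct
These letters occurred at 3 places in the Mt2 window, at 1 in the Mt1 window and at 0 in the Mt3 window. Of 32851 promoter windows of this length, 21.4% held at least 1 match and 1.26% at least 3. GENCODE lists further transcripts that start downstream of the RefSeq start, by 122 and 152 bases for Mt1 and 139 for Mt3. All its Mt2 transcripts start downstream, by 46 and 242 bases, so the Mt2 window ends before any of them. These windows therefore do not cover the bases just before every start. Matches outside the windows were not counted, so the counts do not give the number of such sites per gene. Of the other members, 5 had a window in the table, and only that of Atp7a held matches, 2 of them, while 5.17% of all windows held at least 2. The antioxidant response element, searched as TGACNNNGC, had 1 match in the windows of Sod1, Atox1 and Mt2, and 10.2% of all windows held it. A STAT site, searched as TTCNNNGAA, had 1 match, before Sod2, and 7.02% of windows held it. These motifs too were searched on both strands, and no match overlapped another in these windows.

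How reads were assigned limits Mt2 more than Mt1 and Mt3. An antisense gene, Gm45774, overlaps Mt2, and 201 of the 459 stretches of 53 bases in the Mt2 transcript (43.8%) also lie in it, as do 105 of its 404 stretches of 108 bases (26.0%). The shorter length is the one the methods give for reads and the longer one is 1 read of a pair with 216 aligned bases. Strand use in the counting is not stated, so reads of the pair cannot be told apart. No stretch of this length in Mt1 or Mt3 (0 of 497 and 0 of 484) occurred in the transcripts of another gene on either strand.

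**Figure D2:**
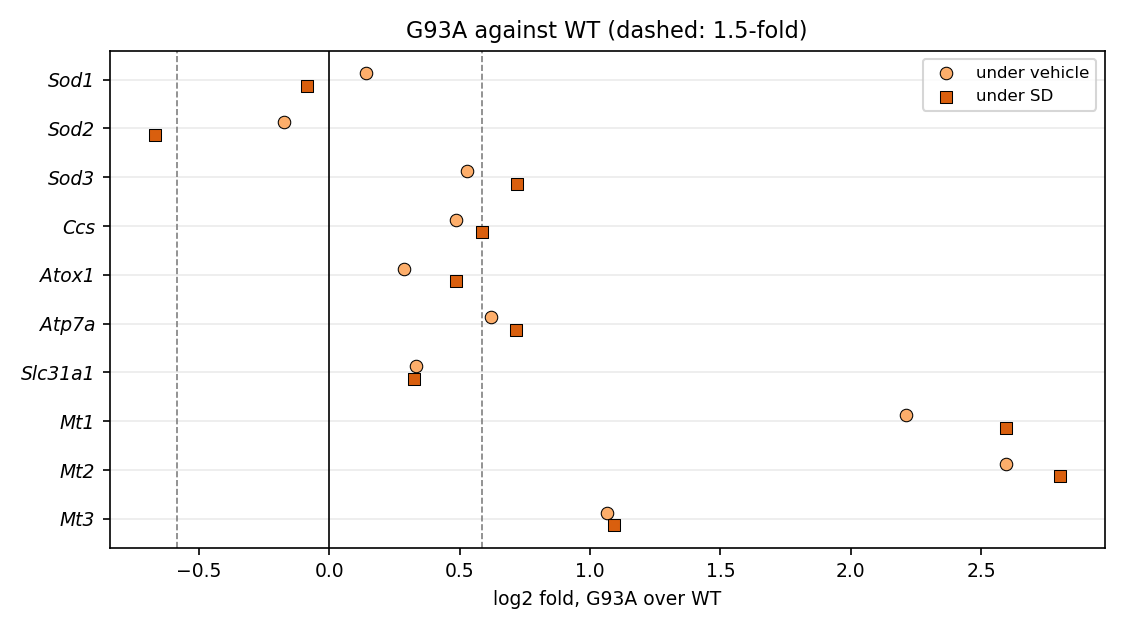
Log2 fold of each member in G93A over WT, under vehicle (circles) and under SD (squares), 1 library on each side; dashed lines mark 1.5-fold. Mt1, Mt2 and Mt3 lie beyond the upper line at both treatments, Sod1 lies on both sides of 0, and Sod2 passes the lower line under SD only.

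Microglial markers and part of the astrocyte markers were higher in the same libraries as the metallothioneins. The summed RPKM of 10 astrocyte genes was 2226 and 2081 in the WT libraries (vehicle and SD) and 4291 and 4784 in the G93A libraries. Of these genes, 5 were called higher in G93A under vehicle and 6 under SD, with 0 called lower, against 20.3% and 23.2% of all names called higher. Gfap, the intermediate filament of reactive astrocytes, had 441 and 386 RPKM in the WT libraries and 2269 and 2707 in the G93A libraries and carried most of the difference. Without it the sum of the other 9 genes was 1785 and 1695 in the WT libraries and 2022 and 2078 in the G93A libraries, a fold of 1.13 under vehicle and 1.23 under SD. S100b was lower in both G93A libraries, 0.883-fold and 0.844-fold, and Slc1a2, Aldoc and Fgfr3 were not called. The summed RPKM of 12 microglial and macrophage genes was 137 and 120.04 in the WT libraries and 938 and 961 in the G93A libraries, with 11 of 12 called higher at either treatment, against the same shares of all names. That of 10 neuronal genes was 3428 and 3374 in the WT libraries and 2057 and 1616 in the G93A libraries. None of these marker genes was at 0 in any library. The fold of the summed microglial markers was 6.85 under vehicle and 8.01 under SD, above those of all 3 metallothioneins. That of the summed astrocyte markers was 1.93 and 2.30 with Gfap. In whole tissue, more cells of a type and more RNA per cell cannot be told apart, and the part of glial cell number in the metallothionein values was not tested.

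**Figure D3:**
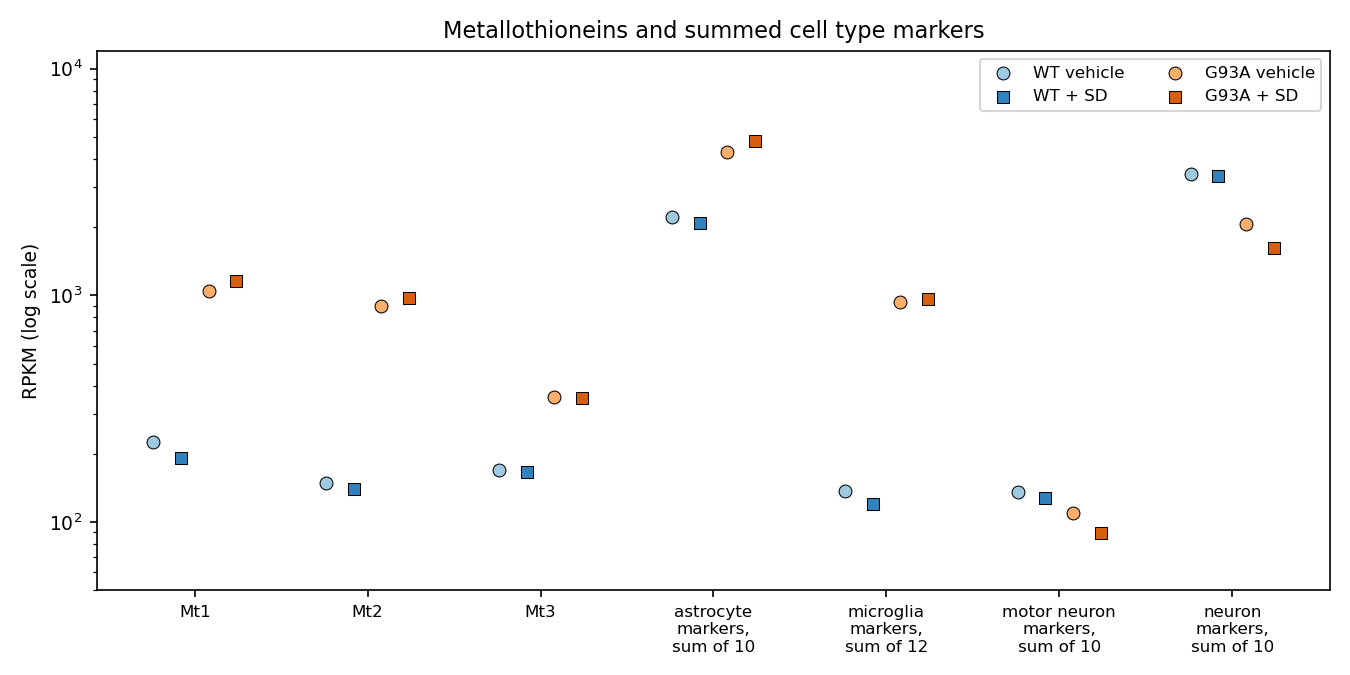
RPKM (log scale) of Mt1, Mt2 and Mt3 and the summed RPKM of marker genes of astrocytes, microglia and macrophages, motor neurons and neurons in the 4 libraries (1 point each, colours by genotype, circles vehicle, squares SD). Metallothioneins, microglial markers and the astrocyte sum, most of whose difference is Gfap, are higher in both G93A libraries, whereas the neuronal sum is lower, 2057 and 1616 against 3428 and 3374.

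The names most like the metallothioneins in pattern were found by the distance between log2 profiles over the 4 libraries, centred on their own mean, among names with a mean of at least 5 RPKM. For Mt2 these were Tmem176a (distance 0.034), Plek (0.071) and Ctsz (0.11). Tmem176a had 11.2 RPKM with vehicle and 10.4 with SD in WT, and 67.5 with vehicle and 75.5 with SD in G93A. For Mt1 they were Aif1 (0.081), a microglial marker, Pld4 (0.14) and Tspo (0.16), a protein of the outer mitochondrial membrane. For Mt3 they were Lcp1 (0.021), Sqrdl (0.046) and Nxn (0.053). These distances describe 4 libraries and were given no test.

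Among the superoxide dismutases, mouse Sod1 differed least. The gene spans chr16:90220754-90226329 (plus strand, GRCm38) with 5 exons in a transcript of 641 bases. Sod1 had 29.0 RPKM with vehicle and 31.1 with SD in WT, and 31.9 with vehicle and 29.3 with SD in G93A. The 2 WT values and the 2 G93A values overlapped, and the fold was 1.10 under vehicle and 0.943 under SD. Its range over all libraries, 0.14 on the log2 scale, was the narrowest of the members. Of its 589 stretches of 53 bases, 125 (21.2%) also occur in Gm8566, as do 15 of its 534 stretches of 108 bases (2.81%), and its span overlaps Scaf4 on the opposite strand, which makes its level less certain. Whether reads of the human transgene were counted on mouse Sod1 was not tested.

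Sod2, the mitochondrial enzyme on chromosome 17, had 37.9 RPKM with vehicle and 51.6 with SD in WT, and 33.6 with vehicle and 32.4 with SD in G93A. It was the only member with both G93A values below both WT values. The value in WT + SD stood apart from the other libraries, so that the G93A library was 1.13-fold lower under vehicle but 1.59-fold lower under SD. The summed RPKM of 5 red blood cell genes was also highest in WT + SD, 69.3 against 34.4 to 55.7 in the other libraries, and its part in the Sod2 value was not tested. Sod3, the secreted enzyme on chromosome 5, was the lowest of the family, with 4.70 RPKM with vehicle and 5.11 with SD in WT, and 6.78 with vehicle and 8.41 with SD in G93A. Both G93A values were above both WT values, by 1.44-fold under vehicle and 1.65-fold under SD. Per length, the order of the levels was Sod2, Sod1, Sod3 in every library, although Sod2 and Sod1 were close in G93A, with a ratio of 1.05 in G93A vehicle and 1.11 in G93A + SD against 1.31 in WT vehicle and 1.66 in WT + SD.

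The copper-handling genes were all higher in both G93A libraries than in both WT libraries, by less than 2-fold. Ccs, the copper chaperone of SOD1, had 8.82 RPKM with vehicle and 8.16 with SD in WT, and 12.3 with vehicle and 12.3 with SD in G93A. The log2 fold was 0.49 under vehicle and 0.59 under SD (50.3% higher), and the second value passed the threshold so narrowly that any pseudocount or rescaling tried put it below. The ratio of Sod1 to Ccs was 3.28 and 3.81 in WT vehicle and WT + SD and 2.58 and 2.39 in G93A vehicle and G93A + SD. Atp7a, the copper pump on the X chromosome, had 2.31 RPKM with vehicle and 2.43 with SD in WT, and 3.55 and 3.99 in G93A, the lowest levels of all members. Its folds were 1.54 under vehicle and 1.64 under SD, and neither call held under every alternative. The log2 fold under vehicle went below the threshold with scaling by median ratios (0.56), equal sums (0.56) and a pseudocount of 1 RPKM (0.46), and that under SD with a pseudocount of 1 RPKM (0.54).

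Atox1, which carries copper to the pumps, was the most abundant copper-handling gene, with 40.1 RPKM with vehicle and 36.7 with SD in WT, and 48.9 with vehicle and 51.3 with SD in G93A. The difference was 1.22-fold under vehicle and 1.40-fold under SD, neither of which was called. Slc31a1, the importer, had 8.46 and 8.52 RPKM in the WT libraries and 10.7 in both G93A libraries. It was the steadiest of this group, 26.0% higher in G93A under vehicle and 25.4% under SD. Its span overlaps Cdc26 on the opposite strand. Summed over the 4 genes, RPKM was 59.7 and 55.8 in the WT libraries and 75.4 and 78.3 in the G93A libraries.

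With SD no member differed from vehicle by 1.5-fold. In WT, 0 of 10 members were called higher and 0 lower, against 7.18% and 8.55% of all names, and in G93A 0 and 0, against 8.71% and 7.31%. Among the 8847 better expressed names the shares were 0.328% and 0.61% in WT and 0.757% and 0.622% in G93A, so that few genes at the level of most members were called in either comparison. The largest difference in WT was that of Sod2, 36.2% higher with SD, and the next that of Mt1, 15.7% lower. In G93A the largest was that of Sod3, 24.0% higher with SD, followed by Atp7a, 12.4% higher, and Mt1, 10.02% higher. Slc31a1 differed by less than 1% in both genotypes. Each of these differences is between single libraries, and the genotype comparisons use the same libraries.

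**Figure D4:**
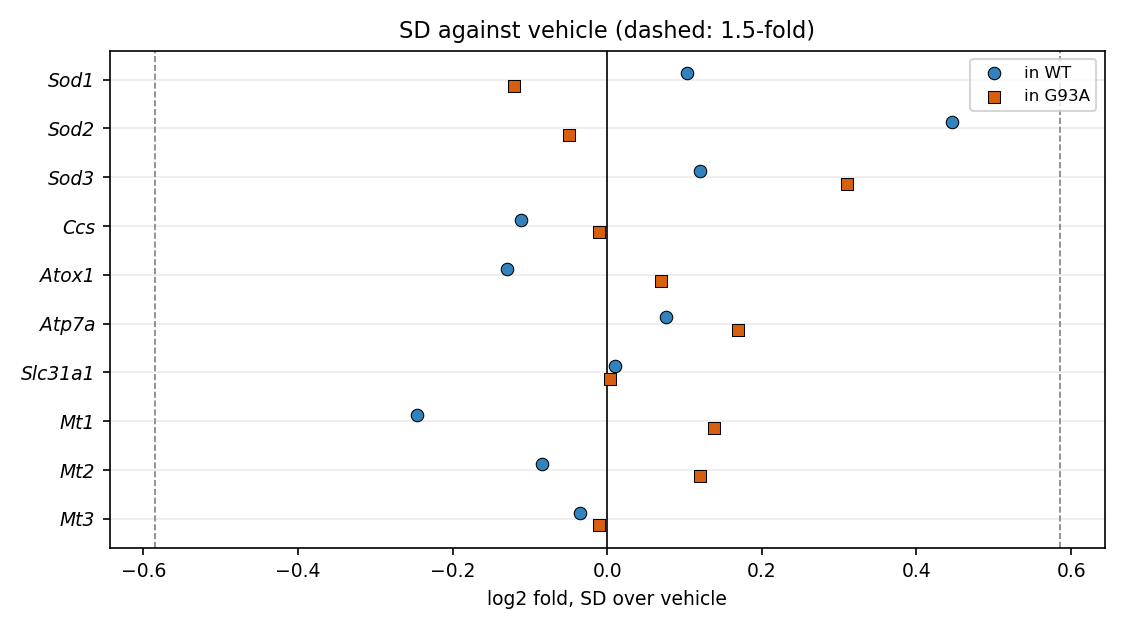
Log2 fold of each member with SD over vehicle, in WT (circles) and in G93A (squares), 1 library on each side; dashed lines mark 1.5-fold. No point reaches a dashed line; the farthest are Sod2 in WT (0.45) and Sod3 in G93A (0.31).

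Other genes of metal and redox handling were read from lists, and their counts stand against the same shares of all names as above (20.3% higher and 10.3% lower under vehicle, 23.2% and 12.5% under SD). Of 16 further genes of copper transport, chaperones, reductases and their regulation, 3 were called higher in G93A and 1 lower at either treatment, with a median log2 fold of 0.13 under vehicle and -0.022 under SD. The call of 1 of the 3, Steap4, rests on very low values, 0.0649 and 0 RPKM in the WT libraries against 0.648 and 1.03 in the G93A libraries. The metalloreductase Steap3 was 2.52-fold higher under vehicle and 3.70-fold under SD, and Steap2, of the same family, was 0.590-fold and 0.465-fold. Atp7b, the second copper pump, went with Atp7a, at 0.938 and 0.856 RPKM in the WT libraries and 1.56 and 1.63 in the G93A libraries. Slc31a2 was higher by 1.37-fold and 1.49-fold and was not called. Mtf1, whose protein senses zinc at metallothionein genes, had 6.06 RPKM with vehicle and 6.46 with SD in WT, and 6.25 with vehicle and 6.01 with SD in G93A, with no fold near the threshold.

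Of 16 copper enzymes and copper-binding proteins, 5 were called higher and 0 lower under vehicle, and 6 higher and 2 lower under SD. The 2 lower calls, Loxl4 and Aoc3, rest on values below 1 RPKM in every library. So do the higher calls of Loxl1 under vehicle and Moxd1 under SD. Lox, which cross-links collagen, was at 0.0976 and 0.0653 RPKM in the WT libraries and at 2.74 and 4.37 in the G93A libraries, and Loxl2 was 5.42-fold and 5.70-fold higher. Cp, the copper ferroxidase ceruloplasmin, had 3.64 and 3.43 RPKM in the WT libraries and 7.90 and 10.2 in the G93A libraries. Among the zinc transporters, 5 of 22 in the table were called higher and 1 lower under vehicle, and 4 and 0 under SD. The calls of Slc39a2, Slc39a4 and Slc30a2 rest on values below 1 RPKM in every library. Slc30a2 was the gene called lower under vehicle and was called higher under SD, at 0.549 and 0.0352 RPKM in the WT libraries and 0.0830 and 0.161 in the G93A libraries. The importers Slc39a1 (2.94-fold and 3.17-fold) and Slc39a14 (2.53-fold and 2.69-fold) were higher at both treatments, whereas Slc39a11 was called under vehicle alone (1.69-fold and 1.39-fold). Mt4 is not analysed here.

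The enzymes that remove the hydrogen peroxide made by superoxide dismutases were higher in part. Of 21 genes of peroxide removal and glutathione, 6 were called higher and 0 lower under vehicle, and 7 and 0 under SD, with a median log2 fold of 0.20 and 0.32. Prdx6, a peroxiredoxin, had 102 RPKM with vehicle and 100.3 with SD in WT, and 450 with vehicle and 610.2 with SD in G93A. Its folds of 4.40 and 6.08 were near those of Mt1. Gpx8 was 3.22-fold and 3.64-fold higher, Gpx3 2.05-fold and 2.33-fold, and Gpx1 1.71-fold and 2.35-fold. Cat, the catalase, had 43.1 and 40.2 RPKM in the WT libraries and 44.9 and 50.2 in the G93A libraries and was not called. Of 13 genes of the NRF2 pathway, the main transcriptional response to oxidants, 7 were called higher under vehicle and 8 under SD, with 0 lower. Hmox1, heme oxygenase, had 3.08 and 3.15 RPKM in the WT libraries and 32.5 and 36.9 in the G93A libraries, Maff was 5.76-fold and 5.69-fold higher, and Nfe2l2, which encodes NRF2 itself, 2.71-fold and 2.93-fold. Counted without a threshold, 10 of the 13 were higher under vehicle and 11 under SD. Gsta4 (0.830-fold and 0.870-fold) and Slc7a11 (0.788-fold and 0.976-fold), named after their values were seen, went the other way. With SD against vehicle, 0 of the 21 peroxide genes and 0 of the 13 NRF2 genes were called in WT or in G93A, where 7.18% and 8.71% of all names were called higher and 8.55% and 7.31% lower, and under 1% in each direction at a mean of 5 RPKM or more.

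**Figure D5:**
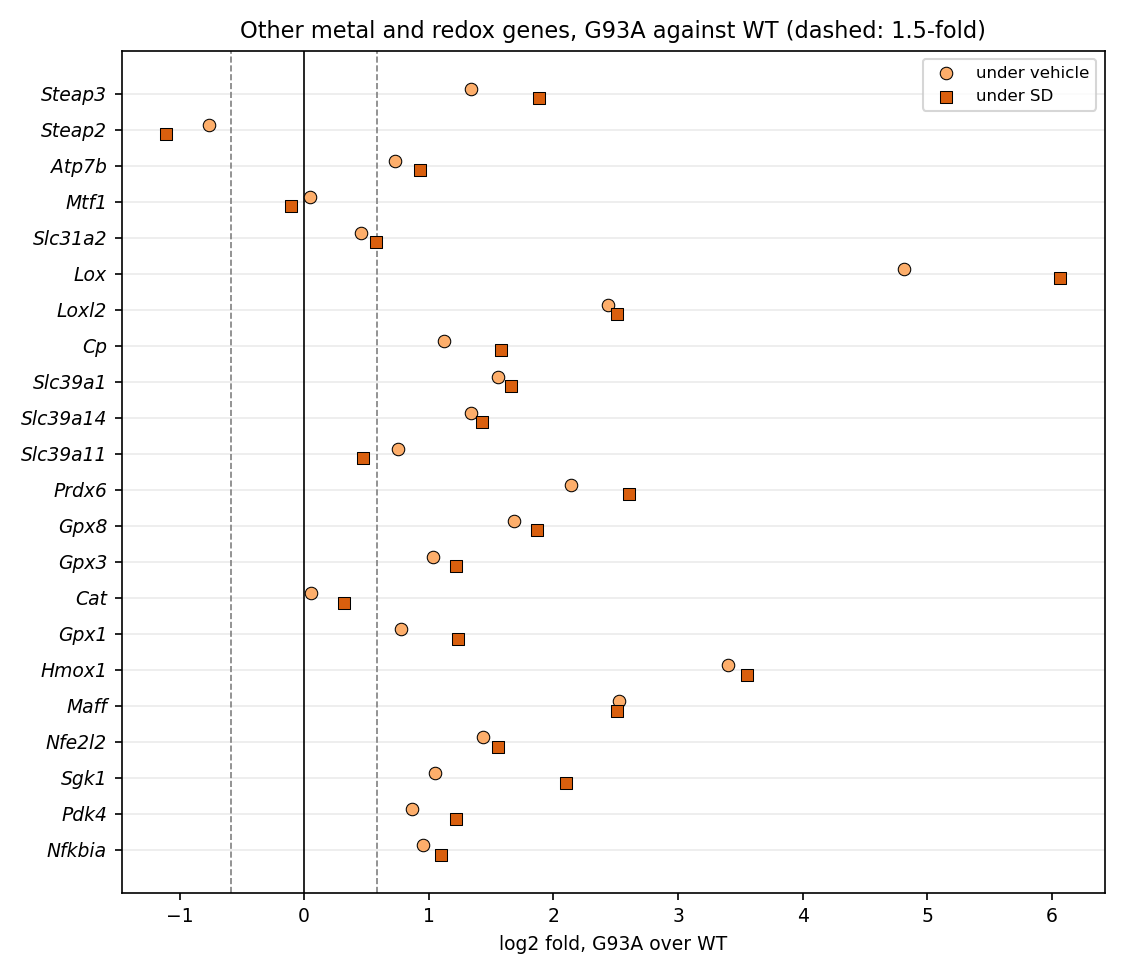
Log2 fold in G93A over WT, under vehicle (circles) and under SD (squares), of the named genes of the metal, redox and glucocorticoid lists, 1 library on each side; dashed lines mark 1.5-fold. Most of these genes, which apart from a few set genes were chosen for large folds, lie to the right. Steap2 lies to the left, and the set genes Mtf1, Cat and Slc31a2 lie within the dashed lines.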

How the data were processed

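RNA of the lumbar cord was measured in 4 libraries, 1 per condition. Per the methods, polyA RNA was sequenced (53 bp), STAR placed the reads on GRCm38, and HTSeq counted them per Ensembl gene. The authors deposited 1 table of 23750 RefSeq transcript rows in RPKM, a unit inferred from the values, and columns of ratios between libraries, which were not used. The step from counts to these values is not given in the sources used here. RPKM of the rows of a name were averaged, and folds carry no pseudocount. Columns were matched to conditions by genotype and SD in their names. Depth was estimated from low values on transcripts of up to 120 bases, of which 66.0% to 72.0% were whole multiples (within 0.1) of 1 aligned base, and from 216 aligned bases as the most frequent low value, taken as a read pair although it is not the stated 53 bp. GENCODE M21 gave positions and lengths. The members and lists were chosen with earlier results of these data known. From each list the 3 genes with the largest mean log2 fold between genotypes (mean of at least 1 RPKM) and a few set genes are named. The alternatives were 2 rescalings, pseudocounts of 0.1 and 1 RPKM, the highest or summed row of a name, thresholds of 25% and 2-fold, and a filter at 1 RPKM. The calculations, tested on simulated data, ran in Python 3.11.15 with pandas 2.3.3 and numpy 2.4.6, and figures were drawn with matplotlib 3.10.9. Other measurements of the study were not analysed here.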

Additional observations from a re-analysis of the deposited data

Results flagged for a closer look

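The difference between SD and vehicle had opposite signs in WT and G93A for 5 of the 10 members, and with 1 library per condition these differences were not tested. The share of all names with opposite signs was not taken, so this count does not set the members apart from other genes. The value given for each is its log2 fold with SD in G93A minus that in WT. It was -0.50 for Sod2 (log2 fold 0.45 in WT and -0.049 in G93A), 0.38 for Mt1 (-0.25 and 0.14), -0.22 for Sod1 (0.10 and -0.12), 0.20 for Mt2 (-0.084 and 0.12) and 0.20 for Atox1 (-0.13 and 0.070). None of the single folds reached 1.5-fold.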

How the results depend on the processing

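With a threshold of 25%, 7 members were called in the vehicle comparison of genotypes in place of 4, all higher, while 29.7% of all names were called higher and 19.2% lower in place of 20.3% and 10.3%. In the comparison of SD in WT, 1 member (Sod2) was then called in place of 0, against 11% of names higher and 13% lower. With a threshold of 2-fold, 3 members (Mt1, Mt2 and Mt3) were called between genotypes under SD in place of 7, against 15.5% and 6.05% of names in place of 23.2% and 12.5%. Under the other alternatives the members' counts stayed within 1.5 times. Scaling by median ratios left 3 members called under vehicle (18.9% and 11.8% of names) and 6 under SD (21.8% and 14.5%), and equal sums the same counts (19.0% and 11.6%, 21.9% and 14.4%). A pseudocount of 1 RPKM left 3 and 5 members, and the shares of names moved more, to 8.31% and 1.9% under vehicle, 10.4% and 4.19% under SD, and 0.268% and 0.444% with SD in WT. In the genotype comparisons Mt1, Mt2 and Mt3 were called under every alternative run, while the calls of Atp7a and Ccs were lost under some. The members without overlap were 8 higher and 1 lower with either rescaling, pseudocount, way of joining rows or filter. The shares of names without overlap went from 39.7% higher and 28.0% lower to 34.1% and 33.5% with median ratios and to 34.4% and 32.9% with equal sums. Overlap does not depend on the fold threshold, so the other thresholds were not run for it. No paired analysis was possible because the labels give each condition a single library.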

Other observations

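Of 17 genes in the table with a mean of at least 1 RPKM and a span within 50 kb of a member, 2 were called higher in G93A at either treatment and 0 lower. Among all names at that level 13.5% were called higher under vehicle and 16.3% under SD, and 4.68% and 8.12% lower. The called genes were Tlr13 beside Atp7a, a receptor of phagocytes, with 0.865 and 0.756 RPKM in the WT libraries and 4.82 and 6.15 in the G93A libraries, and Sparc beside Atox1, with 459 and 409 RPKM in the WT libraries and 816 and 1027 in the G93A libraries. Nup93, within 50 kb of Mt1 and Mt2 and named after its values were seen, was 1.34-fold higher under vehicle and 1.44-fold under SD.

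Glucocorticoids are known inducers of Mt1 and Mt2. Of 10 glucocorticoid response genes, 5 were called higher in G93A under vehicle and 5 under SD, with 0 called lower, against 20.3% and 23.2% of all names called higher. Of these, 4 were called at both treatments (Sgk1, Per1, Pdk4 and Nfkbia), Zbtb16 under vehicle alone and Cdkn1a under SD alone. Sgk1 had 36.5 RPKM with vehicle and 18.4 with SD in WT, and 75.7 with vehicle and 78.8 with SD in G93A. Pdk4 was 1.82-fold higher under vehicle and 2.32-fold under SD, and Nfkbia 1.93-fold and 2.14-fold. Other genes of the list, named after their values were seen, differed less or the other way: Tsc22d3 was lower in both G93A libraries (0.793-fold and 0.682-fold), and Fkbp5 (1.04-fold and 1.23-fold) and Klf9 (0.844-fold and 1.03-fold) were not called.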
